A study of Mus musculus with 2 samples.

Results

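The high-mitochondrial barcodes were the cell barcodes in which genes of the mitochondrial genome gave over 20% of the UMIs (unique molecular identifiers, counted transcripts). They numbered 3185 of 6724 barcodes: 1250 of 3290 in the Wt library, a share of 38.0% (95% Clopper-Pearson interval 36.3 to 39.7), and 1935 of 3434 in the Gata3KO library, a share of 56.3% (54.7 to 58.0). They are termed members here, and the barcodes at 20% or less are the other barcodes. The members were chosen by their mitochondrial share alone, so that share, the mitochondrial genes and the UMIs per barcode are given as a description.

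In both libraries the tibialis anterior, a leg muscle, had been injured with cardiotoxin from Naja pallida (50 µl at 10 µM), a snake venom toxin that lyses muscle fibres, and was taken on day 4. Live mononuclear cells (Zombie aqua-) that lacked the neutrophil marker Ly6G and carried CD45 and CD11b were sorted, and 8000 cells per sample were loaded for droplet 3' sequencing. Wt was the strain C57BL/6 and Gata3KO was C57BL/6:Cx3cr1CRExGata3fl/fl, in which Cre driven by *Cx3cr1* deletes the floxed transcription factor gene *Gata3* in monocytes, macrophages and other cells that have expressed *Cx3cr1*. There was 1 library per genotype, and neither the number nor the age or pooling of mice is stated in the labels. Genotype, animals and preparation therefore cannot be told apart, no test between groups was possible, and all intervals cover counting error only.

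Mitochondria carry a small genome whose transcripts stay inside the organelle. A cell with a torn plasma membrane can lose cytoplasmic mRNA while it keeps mitochondria and nucleus, so a high mitochondrial share is commonly used to discard barcodes, although cell types also differ in mitochondrial content. At this stage of muscle repair the CD11b+ population is mostly monocytes turning into macrophages, with some dendritic cells.

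Members held fewer transcripts from the nuclear genome and more from mitochondria than the other barcodes of their library. Both counts make up the share that chose the members, so a difference of this kind follows in part from the rule. The median was 1436.5 non-mitochondrial UMIs per member in Wt (lowest 533) and 1865 in Gata3KO (lowest 682), against 3007 and 3991 in the other barcodes. The median number of mitochondrial UMIs was 633 and 796 in members, against 313 and 532. In total the members gave 2233357 non-mitochondrial UMIs in Wt and 4254528 in Gata3KO, 16.6% and 25.6% of each library's. Within the members the mitochondrial share ran up to 83.9% in Wt (median 28.8%) and 70.5% in Gata3KO (median 28.4%).

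No step was visible at the limit. Just inside it, at up to 21%, lay 99 Wt and 112 Gata3KO barcodes with medians of 1830 and 2372 non-mitochondrial UMIs. Just outside it, above 19%, lay 85 and 100 barcodes with medians of 1777 and 2387.5. Over the whole range depth was lower where the mitochondrial share was higher: barcodes at up to 10% had medians of 5494.5 (Wt) and 13022 (Gata3KO) non-mitochondrial UMIs, and those over 50% had 796 and 1164.5. Non-mitochondrial UMIs are part of that share, so this too is a description.

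**Figure D1:**
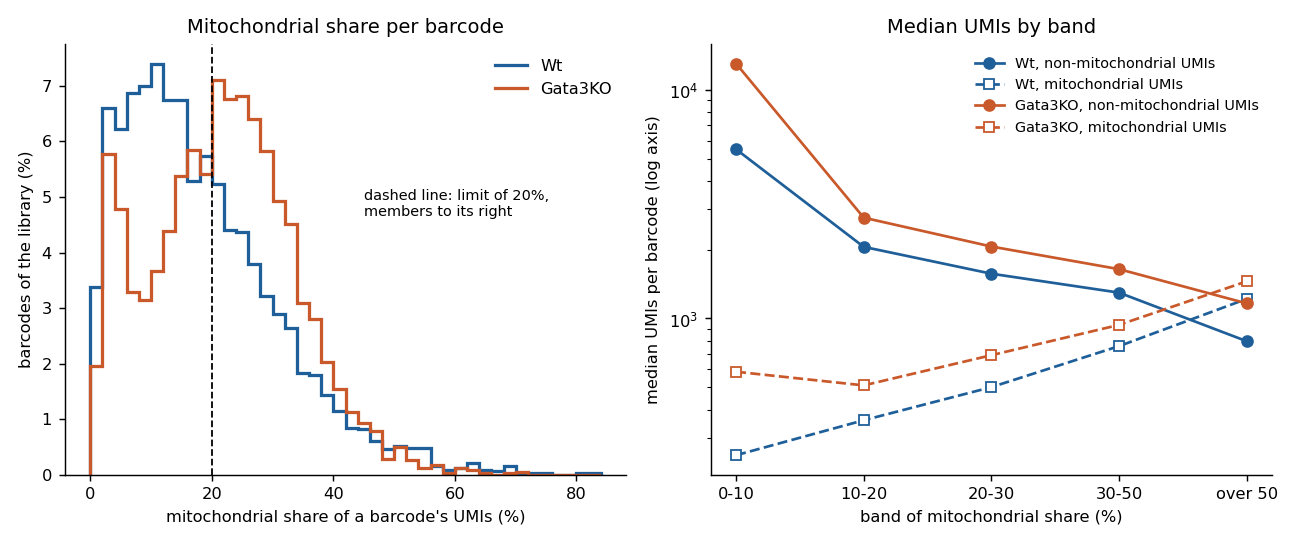
Left, the percentage of each library's barcodes (y axis) by their mitochondrial share in bins of 2 percentage points (x axis), with the limit of 20% as a dashed line. Right, median non-mitochondrial UMIs (filled points) and mitochondrial UMIs (open squares) per barcode on a log axis in 5 bands of that share; the non-mitochondrial median falls from 5494.5 to 796 in Wt and from 13022 to 1164.5 in Gata3KO.

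The mitochondrial UMIs of the members came from all 13 protein-coding genes of the mitochondrial genome. The cytochrome oxidase subunit gene *mt-Co3* gave 21% of them in Wt and 20.2% in Gata3KO, and *mt-Atp6*, an ATP synthase subunit gene, gave 19.8% and 19.4%. The oxidase genes *mt-Co1* (18.7% and 16.8%) and *mt-Co2* (18.6% and 17.4%) followed. All further levels are ratios over non-mitochondrial UMIs (CPM, UMIs per 1000000 of them), so that the members' larger mitochondrial part does not lower every other gene.

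The members were mostly macrophages by their transcripts. Genes of the macrophage core list (9 genes, among them the growth factor receptor *Csf1r*, the complement genes *C1qa*, *C1qb* and *C1qc*, and the scavenger receptor *Cd68*) summed to 7191 CPM in Wt members and 5911 in Gata3KO members. In single genes, *C1qa* stood at 1304 and 792 CPM, *Csf1r* at 720 and 833, and *Mertk*, a receptor for dying cells, at 93.1 and 198. The lipid-handling list (11 genes, such as the surface glycoprotein *Gpnmb*, osteopontin *Spp1* and cathepsin D *Ctsd*) summed to 9359 and 12287 CPM. The tissue-resident list (*Mrc1*, *F13a1*, *Selenop* and others) summed to 1620 and 2581 CPM, and the inflammatory monocyte list (*Ccr2*, *Ly6c2*, *Plac8* and others) to 676 and 433.

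Lists of other blood cells were low and rested on single genes. The neutrophil list summed to 204 CPM in Wt members and 229 in Gata3KO members. Of these, *Csf3r*, a receptor gene that macrophages also transcribe, gave 186 and 189, while the granule genes *S100a8* (1.34 and 2.35 CPM) and *S100a9* (0.45 and 1.65) were near 0. The B cell list summed to 189 and 124 CPM with *Ighm* at 168 and 106, and the T and NK cell list to 68.5 and 77.8 CPM with *Il7r* at 62.7 and 75.4 and *Cd3d* at 3.13 and 1.18. The mast cell, basophil and eosinophil list gave 0 UMIs in Wt and 0.71 CPM in Gata3KO, and the erythroid list 1.79 and 2.59 CPM. Only 1 of 8 genes of the former and 1 of 5 of the latter were listed in both libraries. For the neutrophil, B cell and T and NK cell lists it was 8 of 12, 4 of 6 and 4 of 9. Low levels of these lists therefore do not show that such cells were absent.

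Transcripts of skeletal muscle were present although the sort required CD45. The skeletal muscle list (8 genes, among them the actin gene *Acta1*, the myosin light chains *Mylpf* and *Myl1*, and creatine kinase *Ckm*) summed to 1833 CPM in Wt members and 731 in Gata3KO members, against 735 and 340 in the other barcodes. Along the bands of mitochondrial share the level in Wt was 514, 1268, 1398, 2402 and 3431 CPM (0 to 10, 10 to 20, 20 to 30, 30 to 50 and over 50%). In Gata3KO it was 299, 460, 674, 778 and 2033. Muscle transcripts were thus higher in each successive band of both libraries.

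Clustering of the members alone, on nuclear genes, gave 10 clusters, numbered by size. A name was given from the marker lists where the mean score of a list reached 0.15, a limit set after seeing the data, and where genes of that list were among the 10 leading genes by fold. Cluster 7 (82 barcodes, 76 Wt and 6 Gata3KO) was macrophage-like, with *C1qa* at 6270 CPM, *C1qc* at 3858 and the cathepsin gene *Ctsl* at 2183. Markers of the lipid-handling (*Mmp12*) and tissue-resident (*Folr2*) lists ranked above its first core gene, *C1qc*. Clusters scoring highest for the core list held 6.08% of Wt and 0.31% of Gata3KO members. These shares were 14.2% and 2.43% at a finer resolution, 11.8% and 4.08% without called doublets, and 9.68% and 8.17% with each barcode classed by itself.

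The largest clusters carried the macrophage core genes and differed in inducible genes; they were left without a name. Cluster 0 (842 barcodes, 80 Wt and 762 Gata3KO) was led by *Cd5l*, *F7* and *Lhfpl2*. The lipid-handling list scored highest in it (0.25), but its first gene there, *Gpnmb*, at 1730 CPM against 841 in the rest, was 14th by fold. Cluster 1 (223 Wt and 502 Gata3KO) was led by *Bank1* and *Scamp5* at low levels, with the mannose receptor gene *Mrc1* at 369 CPM. A predicted gene model that overlaps ribosomal RNA was also among its leaders, at 194545 CPM against 113001 in the rest. At a finer resolution 343 barcodes of cluster 1 formed a cluster led by that model, at 292378 CPM. Cluster 2 (500 Wt and 104 Gata3KO) was led by interferon-induced genes: *Ifit2* stood at 346 CPM against 35.9 in the rest, and *Rsad2*, the antiviral viperin gene, at 320 against 36.5. Cluster 3 (23 Wt and 322 Gata3KO) was led by chemokine and NF-kB target genes, with *Cxcl2* at 3313 CPM against 226 and the NF-kB inhibitor gene *Nfkbia* at 3183 against 445. The macrophage core list gave 6031, 6383, 6975 and 5443 CPM in clusters 0 to 3. Cluster 8 (19 Gata3KO barcodes led by *Pf4*, *Ccl8* and *Tnf*) scored 0.57 for the lipid-handling list with *Fabp5* 4th by fold, but ribosomal protein genes and *Pf4*, a tissue-resident marker, were also among its leaders, and it stayed unnamed. By that score alone, clusters 0 and 8 held 40.4% of Gata3KO members. The share was 14.3% when each barcode was classed by itself, 27.3% without called doublets, 14.9% at a limit of 25% and 0% at 30%, so it is not relied on.

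Dendritic cells formed 2 small clusters. Cluster 5 was conventional dendritic cell 2-like, with the growth factor receptor gene *Flt3* at 171 CPM against 5.72 in the rest and the lectin genes *Cd209a* at 181 and *Clec10a* at 403. It held 83 Wt members, 6.64% (5.32 to 8.17), and 72 Gata3KO members, 3.72% (2.92 to 4.66), and its median mitochondrial share was 24.8%, near the limit. Lymphoid genes such as *Il18rap*, *Klrk1* and *Ms4a4b* were also among its 20 leading genes. At a finer resolution 13 of its barcodes, 12 from Wt and 1 from Gata3KO, formed a T and NK cell cluster led by *Ms4a4b* and *Itgb7*, and dendritic cell 2-like barcodes then made up 6% of Wt and 3.41% of Gata3KO members. Cluster 9 (8 Wt and 6 Gata3KO) was mature dendritic cell-like, led by *Cacnb3*, *Il4i1* and *Socs2*, with that list at 10192 CPM. The macrophage core list was at 1637 and 2018 CPM in these clusters, the lowest of the 10.

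Clusters 4 and 6 were given no cell type name, since they held transcripts of muscle and of dividing cells beside others. Cluster 4 (184 Wt and 92 Gata3KO) had *Acta1* at 1642 CPM against 176 in the rest and the muscle list at 6142 CPM, while its macrophage core list stood at 6126 CPM, within the range of clusters 0 to 3. *Actc1*, *Tnnt2*, *Mymx* and *Myog* (339 CPM against 48.2) were also among its 20 leading genes. Clusters scoring highest for the muscle list held 14.7% of Wt and 4.75% of Gata3KO members. These shares were 0% and 0% at a Leiden resolution of 0.3, and 49.2% and 8.87% at a limit of 25%. Whether the barcodes of cluster 4 hold macrophages with muscle RNA, pairs of cells or fragments was not tested. Cluster 6 (73 Wt and 50 Gata3KO) mixed cell-cycle genes (*Mki67* at 1303 CPM, *Top2a* at 496) with *Ctsk*, the collagen-degrading cathepsin K, at 983 CPM against 9.86. At a finer resolution these genes led 2 separate clusters, 115 barcodes with *Ctsk*, *Mmp9* and cell-cycle genes and 27 with *Igfbp5*, *Peg3*, *Ttn* and the muscle stem cell genes *Cdh15* and *Pax7*. The latter had a median mitochondrial share of 56.9%.

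**Figure D2:**
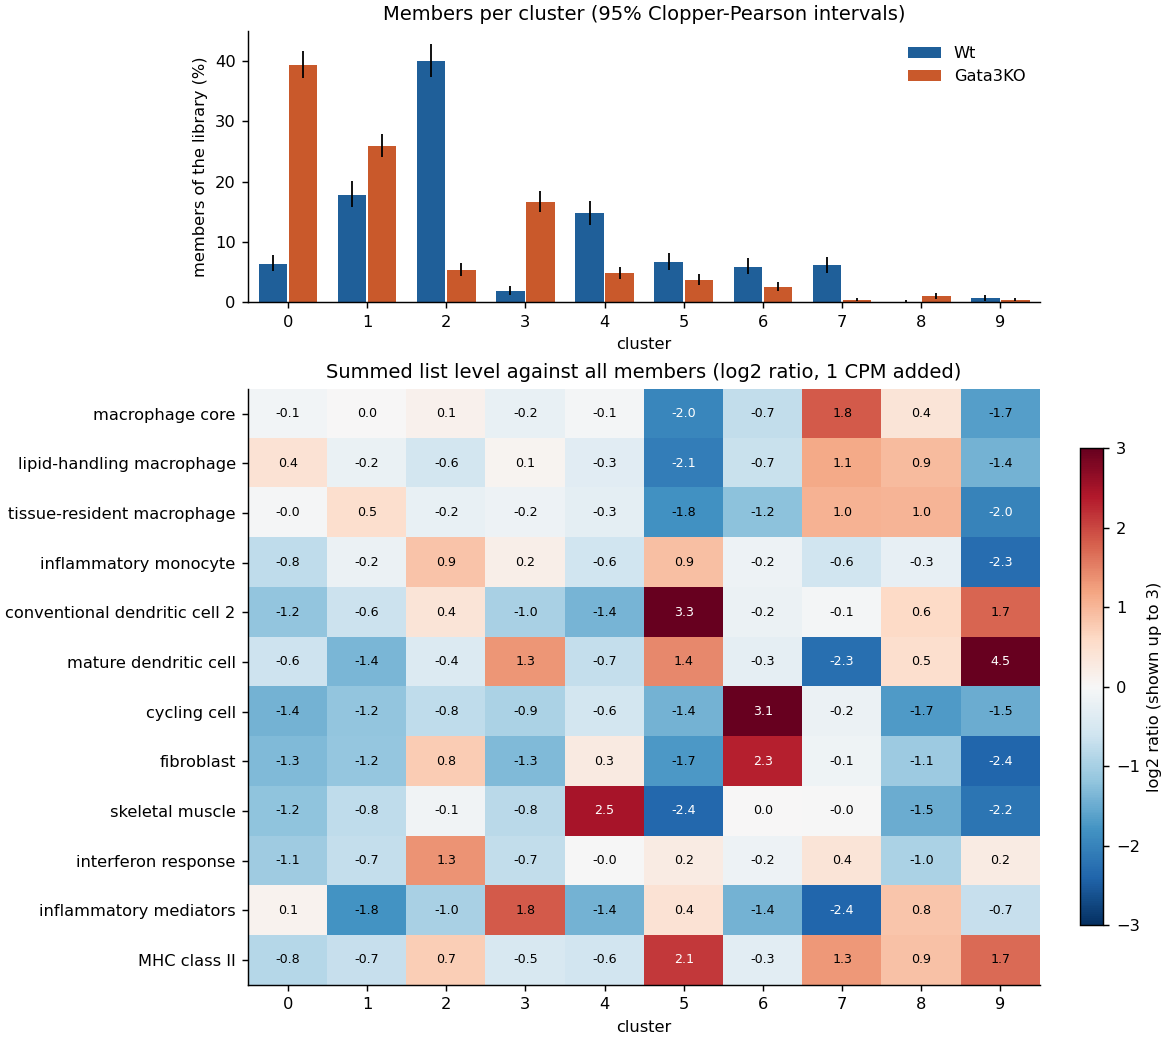
Top, the percentage of each library's members in each cluster, with 95% Clopper-Pearson intervals; clusters 0, 3 and 8 are mostly Gata3KO and clusters 2 and 7 mostly Wt, so no comparison of sizes is read from it. Bottom, the summed level of 12 gene lists (rows) in each cluster (columns) as log2 ratio to all members with 1 CPM added; the dendritic lists stand out in clusters 5 and 9, muscle in cluster 4, cycling in cluster 6.

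Since free RNA in droplets can give UMIs to any barcode, the share of barcodes with a UMI of a list was compared between clusters after thinning each to 500 non-mitochondrial UMIs. A UMI of the macrophage core list was found in 88.8% of all members (98.3% without thinning), in 54.0% of cluster 5 and in 42.6% of cluster 9. A UMI of the conventional dendritic cell 2 list was found in 36.0% of cluster 5 (60.0% without thinning, median 1191 UMIs). In clusters 0 to 4 it was found in 2.09% to 6.55% (6.52% to 17.9% without thinning, medians 1546 to 1953.5 UMIs). Muscle transcripts were found in 86% of cluster 4 (98.2% without thinning) and in 11.2% of cluster 5 (22.6%), and reached 42.4% in cluster 7. The shares thus differed between clusters after thinning as well as without it, and muscle RNA reached every cluster. However, the clusters were formed from these same counts and scored by these same lists. Higher shares of the dendritic list in cluster 5 and of the muscle list in cluster 4 follow from that. They cannot decide whether free RNA gave those UMIs, which was not tested. Scrublet, a doublet caller, marked 18 Wt members (1.44%) and 0 in Gata3KO. These were left in, and doublets may remain.

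Members were next set against the other barcodes of the same library. Over barcodes of every depth, 21.6% of 6810 measured genes in Wt were over 1.5-fold higher in members and 12.7% were over 1.5-fold lower. In Gata3KO the values were 34.4% and 21% of 6813. These splits depend on the total used for scaling, which moved the median log2 ratio of all genes from 0.17 to between -0.31 and 0.28 in Wt and from 0.26 to between -0.19 and 0.40 in Gata3KO. With mitochondrial UMIs in the totals, 206 genes were higher and 2009 lower in Wt, in place of 1472 and 867, and 825 and 2160 in Gata3KO, in place of 2344 and 1429. With median-of-ratios scaling they were 814 and 1298 in Wt and 1381 and 1951 in Gata3KO; with totals free of ribosomal protein, nuclear-retained and ribosomal RNA-overlapping genes they were 2210 and 737, and 3219 and 1284.

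Over all depths, nuclear RNA was higher and mRNA of protein synthesis and respiration lower in members. *Malat1*, a long non-coding RNA that stays in the nucleus, was at 33304 CPM in other barcodes and 59896 in members of Wt, and at 26905 and 86261 in Gata3KO. Of 78 measured cytosolic ribosomal protein genes, 57 were over 1.5-fold lower in Wt members (median log2 ratio -0.73) and 72 in Gata3KO members (-1.25). Of 76 nuclear genes of oxidative phosphorylation, 43 and 63 were over 1.5-fold lower, with medians of -0.64 and -1.10. The iron-storage gene *Fth1* stood at 7615 CPM in other barcodes and 3472 in members of Wt, and at 13191 and 3326 in Gata3KO. The immediate-early gene *Jun* was higher in members: 691 to 1312 CPM in Wt and 822 to 2025 in Gata3KO.

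These differences were smaller or turned between barcodes of like depth. Members and other barcodes were compared again where both had over 1000 and up to 2000 non-mitochondrial UMIs, a window chosen after seeing the data. It held 601 members and 603 other barcodes in Wt (median mitochondrial share 28.2% and 13.1%) and 984 and 309 in Gata3KO (29.8% and 15%). *Malat1* was then lower in Wt members, 97846 CPM in other barcodes to 70914 in members, and near level in Gata3KO, 87083 to 95859. The window lies below the median depth of the other barcodes, 3007 UMIs in Wt and 3991 in Gata3KO. Its other barcodes carried more *Malat1* than the other barcodes did over all depths. Whether the turned signs come from this choice of barcodes was not tested. The median log2 ratio of the ribosomal protein genes was 0.14 in Wt and -0.37 in Gata3KO, and that of oxidative phosphorylation was 0.28 and -0.07. Between 2000 and 4000 UMIs the ribosomal medians were -0.14 and -0.18. Genes over 1.5-fold higher made up 10.5% of those measured in Wt and 9.71% in Gata3KO, and genes over 1.5-fold lower made up 10.5% and 10.7%.

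Transcript length behaved in the same way. Over all depths, the group with the shortest transcripts, of 4 equal groups of genes by longest annotated transcript, had a median log2 ratio of members to other barcodes of -0.35 in Wt and -0.64 in Gata3KO, and the group with the longest had 0.49 and 0.72. At like depth the former had 0.091 and -0.11 and the latter -0.077 and -0.0029. In Wt the order of the groups was thus turned at like depth. In Gata3KO the medians still rose from the shortest to the longest group (-0.11, -0.054, -0.0079 and -0.0029), but over a smaller range.

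At like depth, genes of antigen presentation were lower in members of both libraries. MHC class II molecules display peptides to helper T cells and are most abundant on dendritic cells. The invariant chain gene *Cd74* was at 5141 CPM in other barcodes and 2655 in members of Wt, and at 6312 and 2009 in Gata3KO. The beta chain gene *H2-Ab1* went from 5200 to 2575 CPM in Wt, a log2 ratio of -1.01 (95% interval -1.09 to -0.94), and from 3940 to 1418 in Gata3KO, -1.47 (-1.56 to -1.38). All 8 genes of the list were lower in members of both libraries, 5 of them over 1.5-fold in Wt and 6 in Gata3KO, with medians of -0.81 and -1.24 beside -0.02 and -0.04 for all genes. *Ciita*, the master regulator of class II genes, went from 575 to 321 CPM in Wt and from 522 to 259 in Gata3KO. Dendritic transcripts moved with these genes: the conventional dendritic cell 2 list summed to 407 CPM in other barcodes and 178 in members of Wt, and to 365 and 112 in Gata3KO. Their part in the class II difference was not tested.

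Dendritic cell genes were lower too. All 6 measured genes of the conventional dendritic cell 2 list were over 1.5-fold lower in Wt members (median -1.35) and all 5 in Gata3KO members (-2.06). *Flt3* went from 79.0 to 30.004 CPM in Wt and from 39.2 to 8.67 in Gata3KO, and *Kmo*, an enzyme of kynurenine metabolism, from 58.4 to 15 and from 37.2 to 8.0003. Of the mature dendritic cell list, of which Gata3KO had 3 genes measured over all depths (median 0.39), 8 of 10 measured genes in Wt and 5 of 7 in Gata3KO were over 1.5-fold lower. The migration receptor gene *Ccr7* went from 52.7 to 15 CPM and from 22.7 to 6.67, and the signalling adaptor gene *Traf1* from 494 to 172 and from 363 to 159. *Cd83* moved less, from 159 to 122 CPM in Wt and from 351 to 339 in Gata3KO. A gene counted as measured if it reached 20 CPM in members or in the other barcodes. One under 20 CPM in members was therefore measured only where it was higher in the other barcodes. *Flt3* in Gata3KO members, and *Kmo* and *Ccr7* in members of both libraries, were such genes. The counts of lower genes and the medians of both dendritic lists thus follow in part from this filter.

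Monocyte genes were lower in members as well. *Ly6c2*, the surface antigen of inflammatory monocytes, went from 172 to 43.9 CPM in Wt and from 72.3 to 46.7 in Gata3KO. The chemokine receptor gene *Ccr2* went from 697 to 490 and from 665 to 383. The median of the 5 measured genes of the list was -1.27 in Wt and -0.80 in Gata3KO. In Wt, 10 of 10 measured inflammatory mediator genes were lower in members (median -0.48), 4 of them over 1.5-fold. In Gata3KO 8 of 11 were (-0.27), but between 2000 and 4000 UMIs 6 of 11 were higher (0.082).

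Macrophage genes depended on depth. Over all depths 6 of 9 macrophage core genes were lower in members, with medians of -0.41 in Wt and -1.03 in Gata3KO. The same held for 10 of 11 lipid-handling genes (-0.54 and -0.85), and the lysosome medians were -0.28 and -0.75. All 9 core genes were higher in Wt members at like depth, 5 of them over 1.5-fold, with a median of 0.64; in Gata3KO 6 of 9 were higher, 1 over 1.5-fold, with a median of 0.090. *C1qa* went from 642 to 1219 CPM in Wt and from 681 to 652 in Gata3KO, and *Adgre1*, the F4/80 gene, from 69.9 to 148 and from 95 to 124. The cathepsin D gene *Ctsd* was higher in both, from 1475 to 3484 CPM, log2 1.24 (1.15 to 1.34), in Wt and from 2366 to 4240, 0.84 (0.75 to 0.93), in Gata3KO. *Gpnmb* went from 342 to 733 and from 655 to 1061 CPM. Of 17 measured lysosome genes 9 in Wt and 1 in Gata3KO were over 1.5-fold higher, with medians of 0.60 and 0.066.

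Tissue-resident macrophage genes stood higher in members of both libraries at like depth, but not over all depths, where the medians were 0.19 in Wt and -0.20 in Gata3KO. Of 8 measured at like depth, 8 were higher in Wt (median 1.05) and 7 in Gata3KO (0.62), and 7 and 5 were over 1.5-fold higher. Between 2000 and 4000 UMIs 4 of 7 in Wt and 0 of 8 in Gata3KO were past 1.5-fold, with medians of 0.80 and 0.15. The growth factor gene *Igf1*, which supports muscle repair, went from 52.7 to 91.2 CPM in Wt and from 64.0 to 158 in Gata3KO, and the selenium carrier gene *Selenop* from 441 to 886 and from 927 to 1402. Muscle genes remained higher: 8 of 8 over 1.5-fold in Wt (0.93) and 4 of 8 in Gata3KO (0.63), with *Mylpf* at 252 and 514 CPM in Wt and 118 and 193 in Gata3KO. Whether muscle RNA and identity move with the mitochondrial share for one reason was not tested.

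**Figure D3:**
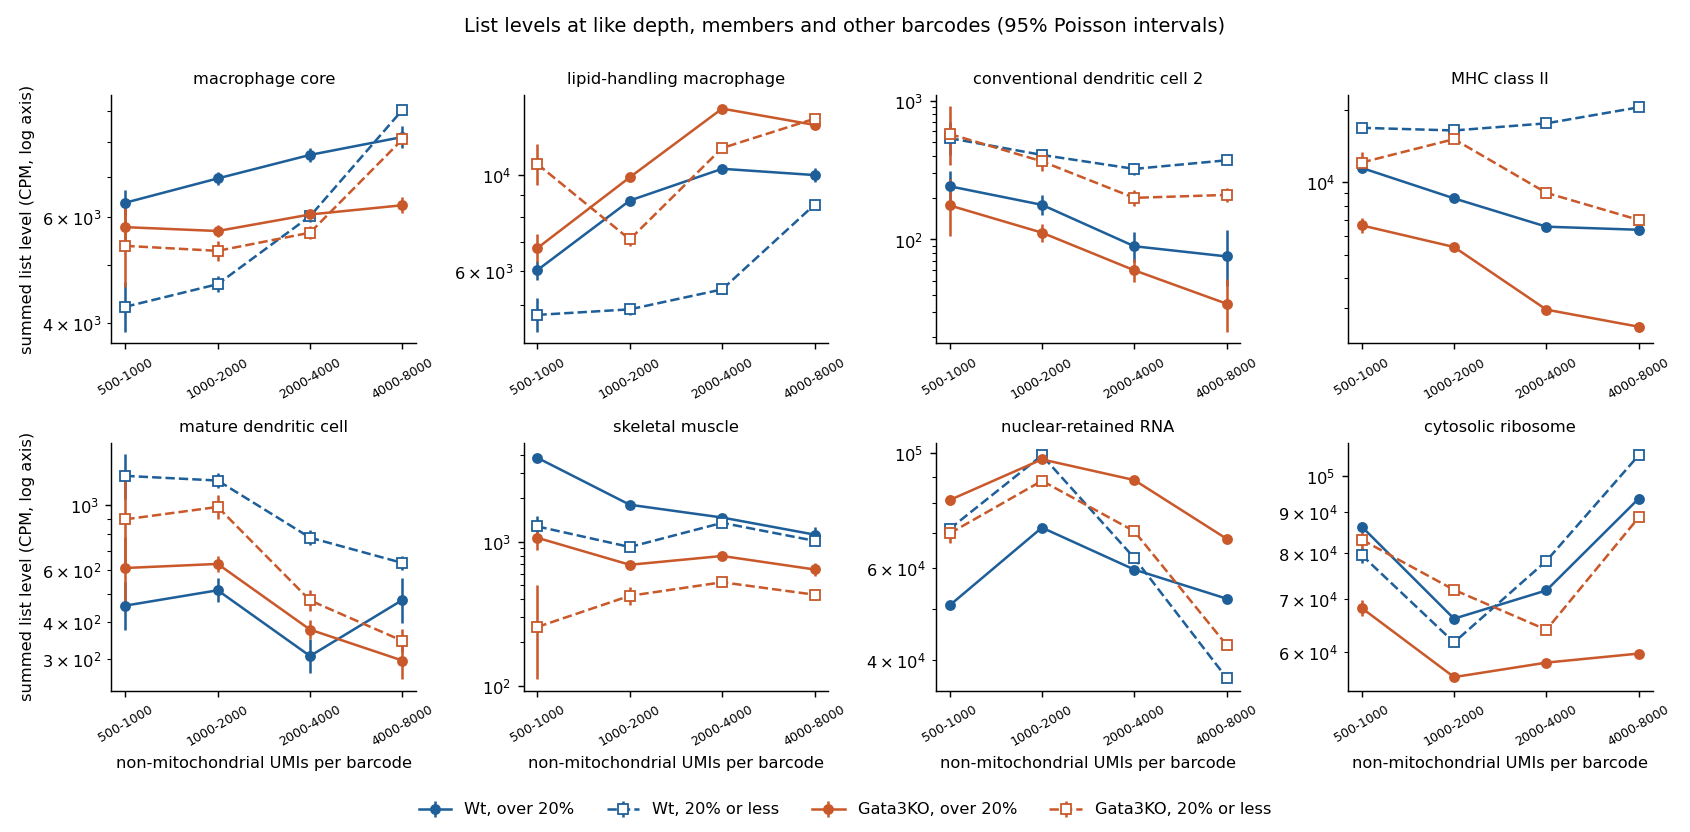
Summed level of 8 gene lists (y axes, CPM, log scale) in 4 windows of non-mitochondrial UMIs per barcode (x axes) for members (filled, solid) and other barcodes (open, dashed) of Wt and Gata3KO, with 95% Poisson intervals. MHC class II and conventional dendritic cell 2 lists lie lower in members than in other barcodes of the same library in all 4 windows; nuclear-retained and ribosomal lists cross in Wt.

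The order held at other depths for the dendritic and class II genes. Between 2000 and 4000 non-mitochondrial UMIs the medians of the class II list were -1.06 in Wt and -1.23 in Gata3KO. Those of the conventional dendritic cell 2 list were -2.21 and -2.52, under the same filter of 20 CPM. The macrophage core medians were 0.33 and 0.03 and the muscle medians 0.12 and 0.67. From 4000 to 8000 UMIs the class II list summed to 20480 CPM in other barcodes and 6360 in members of Wt, and to 6988 and 2520 in Gata3KO.

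The genes with the largest ratio in the library where it was smaller, over all depths, were *Pde1b*, *Lars2*, *Ckm*, *Dvl1*, *Rgl2*, *Myl1*, *Kif13b* and *Oas2* among those higher in members. *Lars2* is on the list of 4 gene models that overlap ribosomal RNA. All 4 were over 1.5-fold higher in members of both libraries, with medians of 1.34 in Wt and 1.79 in Gata3KO. At like depth these medians were 0.22 and 0.37. The phosphodiesterase gene *Pde1b* was at 23.6 CPM in other barcodes and 95.8 in members of Wt, and at 17.9 and 68.4 in Gata3KO. At like depth it was at 48.1 and 120 CPM in Wt and 66.1 and 75.3 in Gata3KO. *Rgl2*, a Ral activator gene, kept a log2 ratio of 0.63 (0.37 to 0.90) in Wt and 0.62 (0.32 to 0.92) in Gata3KO at like depth. Among those lower in members were *Col1a1*, *Klrd1*, *Igfbp7*, *Plac8*, *Thbs4*, *Cd209a*, *Apod* and *Sdf2l1*. The collagen gene *Col1a1*, a fibroblast product, was at 285 CPM in other barcodes and 56.9 in members of Wt, but at 32.1 and 46.2 at like depth. *Klrd1*, which dendritic cells also transcribe, kept its difference there: 73.3 to 18.5 CPM in Wt and 37.2 to 10.0 in Gata3KO.

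The comparison of Gata3KO with Wt sets C57BL/6:Cx3cr1CRExGata3fl/fl against C57BL/6. The intended deletion of *Gata3*, the Cre driven by *Cx3cr1* and the floxed allele differ together and cannot be told apart. *Gata3* itself (ENSMUSG00000015619, chromosome 2, 9857078 to 9890034, GRCm38) gave 1 UMI in Wt members and 3 in Gata3KO members. This is too few to check the deletion, and 3' tags outside the deleted part would not show it. *Cx3cr1*, whose locus drives Cre, was at 305 CPM in Wt members and 563 in Gata3KO members, a log2 ratio of 0.89 (0.76 to 1.01). Of 6851 genes measured in members, 8.63% were over 1.5-fold higher in Gata3KO and 10.5% over 1.5-fold lower. In the other barcodes, which come from the same 2 libraries, the values were 5.62% and 7.69% of 6369. The split in members depends on the total used for scaling. With mitochondrial UMIs in the totals 582 genes were higher and 496 lower, in place of 591 and 718. They were 512 and 825 with median-of-ratios scaling, and 671 and 942 with totals free of ribosomal protein, nuclear-retained and ribosomal RNA-overlapping genes.

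Interferon-induced genes were lower in Gata3KO members without exception among the 30 listed. The antiviral gene *Isg15* was at 455 CPM in Wt members and 81.1 in Gata3KO members, a log2 ratio of -2.49 (-2.67 to -2.31), and *Ifit2* at 199 and 35.5, -2.49 (-2.76 to -2.22). The T cell chemokine gene *Cxcl9* (ENSMUSG00000029417, chromosome 5, 92321347 to 92328079) was at 77.0 and 9.40 CPM, -3.03 (-3.57 to -2.53). All 30 genes were over 1.5-fold lower, the smallest difference being that of *Gbp7*, 109 to 63.9 CPM. The median was -1.58 in members and -1.85 in the other barcodes, beside 0.04 and 0.03 for all genes. Near-identical family members (*Ifit3* and *Ifit3b*, the *Gbp* and *H2* genes) can share reads, so their single values are less certain than the list.

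Other genes that interferon raises were among the 12 with the largest ratios below 0: *Ly6a*, the stem cell antigen Sca-1, was at 262 CPM in Wt members and 34.1 in Gata3KO members, *Ifitm3*, which blocks viral entry, at 700 and 129, and *Gbp2* and *Gbp4*, guanylate-binding proteins, at 80.1 and 15.7 and at 58.7 and 10.3. The first of these was *Plac8*, a gene of monocytes and activated myeloid cells, at 150 and 15.7 CPM, -3.25 (-3.65 to -2.87). The chemokine genes *Ccl5* (90.9 and 16 CPM) and *Ccl12* (62.7 and 9.64) and the GTPase gene *Iigp1* (80.6 and 13.2) belonged to the same 12. In the other barcodes *Cxcl9* was at 147 and 83.0 CPM, a log2 ratio of -0.82, and *Ccl5* at 647 and 33.3, -4.28. The remaining gene of the 12, *Chrna1*, a subunit of the muscle acetylcholine receptor, was at 51.9 and 8.46 CPM; its log2 ratio went from -2.62 to -0.74 without clusters 4 and 6.

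Antigen presentation genes were lower as well. *H2-Ab1* was at 2378 CPM in Wt members and 939 in Gata3KO members, -1.34 (-1.40 to -1.28), *Cd74* at 2574 and 1465, and *Ciita* at 274 and 181. Of the 8 MHC class II genes 7 were over 1.5-fold lower, and the costimulation gene *Cd86* was higher, 81.9 and 155 CPM. Of 8 MHC class I genes 6 were over 1.5-fold lower, among them the peptide transporter *Tap1* at 334 and 116 CPM, while *B2m* was at 2814 and 2622. The medians were -0.86 and -1.03 in members and -1.16 and -0.94 in the other barcodes. The conventional dendritic cell 2 list, whose cells carry much class II, summed to 149 CPM in Wt members and 79.4 in Gata3KO members; its part in the difference was not tested.

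Inflammatory mediators were higher in Gata3KO members. All 11 measured genes were higher and 10 of them over 1.5-fold, with a median of 1.35, against 0.88 and 9 of 11 in the other barcodes. The neutrophil chemokine gene *Cxcl2* (ENSMUSG00000058427, chromosome 5, 90903871 to 90905938) was at 183 and 805 CPM, 2.14 (1.99 to 2.29). *Ptgs2*, the prostaglandin synthase COX-2, was at 24.2 and 99.9 CPM and *Ccl3*, which draws monocytes, at 224 and 680. *Cxcl1* had 2 UMIs in Wt members and 170 in Gata3KO members, 0.90 and 40.0 CPM, a log2 ratio of 5.48 with a counting interval of 3.6 to 8.54. The smallest was *Ccl2*, 106 and 148 CPM.

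Early response genes and growth factors were also mostly higher. Of 20 early response and heat shock genes 11 were over 1.5-fold higher and 1, *Klf2*, over 1.5-fold lower (116 and 57.4 CPM). *Ier3* was at 153 and 517 CPM, the nuclear receptor genes *Nr4a1* at 117 and 307 and *Nr4a2* at 21.9 and 80.6, and the chaperone *Hspa1a* at 366 and 885, a near copy of *Hspa1b*. Of 10 measured repair growth factor genes 7 were over 1.5-fold higher. The stress-induced cytokine gene *Gdf15* was at 102 and 502 CPM, 2.31 (2.11 to 2.51), *Osm* at 28.2 and 74.7, while *Pdgfb* was at 101 and 56.9.

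Among genes with at least 50 CPM in either library the largest ratio was that of *Chil3* (ENSMUSG00000040809, chromosome 3, 106147554 to 106167564), a chitinase-like protein used as a marker of alternative activation. It had 10 UMIs in Wt members and 391 in Gata3KO members, 4.48 and 91.9 CPM, a log2 ratio of 4.36 (3.46 to 5.43), beside 24.0 and 243 CPM in the other barcodes. *Mrc1* was at 154 and 278 CPM, *Il4ra* at 153 and 185 and *Clec10a* at 60.9 and 44.9, so the list did not move as one. *Gdpd3*, a lysophospholipase D gene, was at 16.6 and 126 CPM, and *F13a1*, the factor XIII A chain made by resident macrophages, at 42.5 and 152. Among the 12 largest were also *Tnfsf9*, a costimulatory ligand gene (21 and 66 CPM), and the antisense gene *Bach2os* (15.7 and 54.3). *Ctsk* was at 14.3 and 99.7 CPM, 2.80 (2.28 to 3.36), but 0.47 without clusters 4 and 6 and -0.38 between barcodes of 1000 to 2000 UMIs.

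Macrophage identity genes did not shift in one direction. Of the core list 1 gene, *Mertk*, was over 1.5-fold higher in Gata3KO members (93.1 and 198 CPM) and 3 were over 1.5-fold lower, among them *Fcgr1* (382 and 148) and *C1qc* (879 and 357). Lipid-handling genes split between *Gpnmb* (735 and 1289 CPM) and *Spp1* (1108 and 1993), which were higher, and *Mmp12* (71.2 and 26.6) and *Cd63* (522 and 270), which were lower. Of 8 measured tissue-resident genes 5 were over 1.5-fold higher and *Folr2* was lower (97.2 and 50.3 CPM), with medians of 0.73 in members and 1.07 in the other barcodes. All 8 muscle genes and all 8 measured cycling genes were over 1.5-fold lower in Gata3KO members, with medians of -1.34 and -1.11. With each cluster given the same share in both libraries these were -0.62 and -0.50, and within cluster 6, which holds most cycling transcripts, 5 of 10 cycling genes were higher and 5 lower (0.0039). The dendritic cell gene *Flt3* was at 20.6 and 5.64 CPM.

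Genes of protein synthesis and respiration were lower in Gata3KO members, and near level in the other barcodes. Of 78 ribosomal protein genes 75 were lower and 32 over 1.5-fold lower in members (median -0.53, 95% interval over genes -0.60 to -0.42), against 0 in the other barcodes (0.01). Of 76 nuclear oxidative phosphorylation genes 18 were over 1.5-fold lower in members (-0.41) and 0 in the other barcodes (0.11). *Rps13* was at 776 and 389 CPM and the oxidase subunit gene *Cox5a* at 153 and 67.2. *Rpsa* was the other way round, at 3169 and 5685 CPM. *Malat1* was at 59896 and 86261 CPM. With each cluster given the same share in both libraries the medians were -0.12 and -0.0043, and within clusters 0 to 6 the ribosomal median lay between -0.35 and 0.15. The difference between members and other barcodes was not tested.

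**Figure D4:**
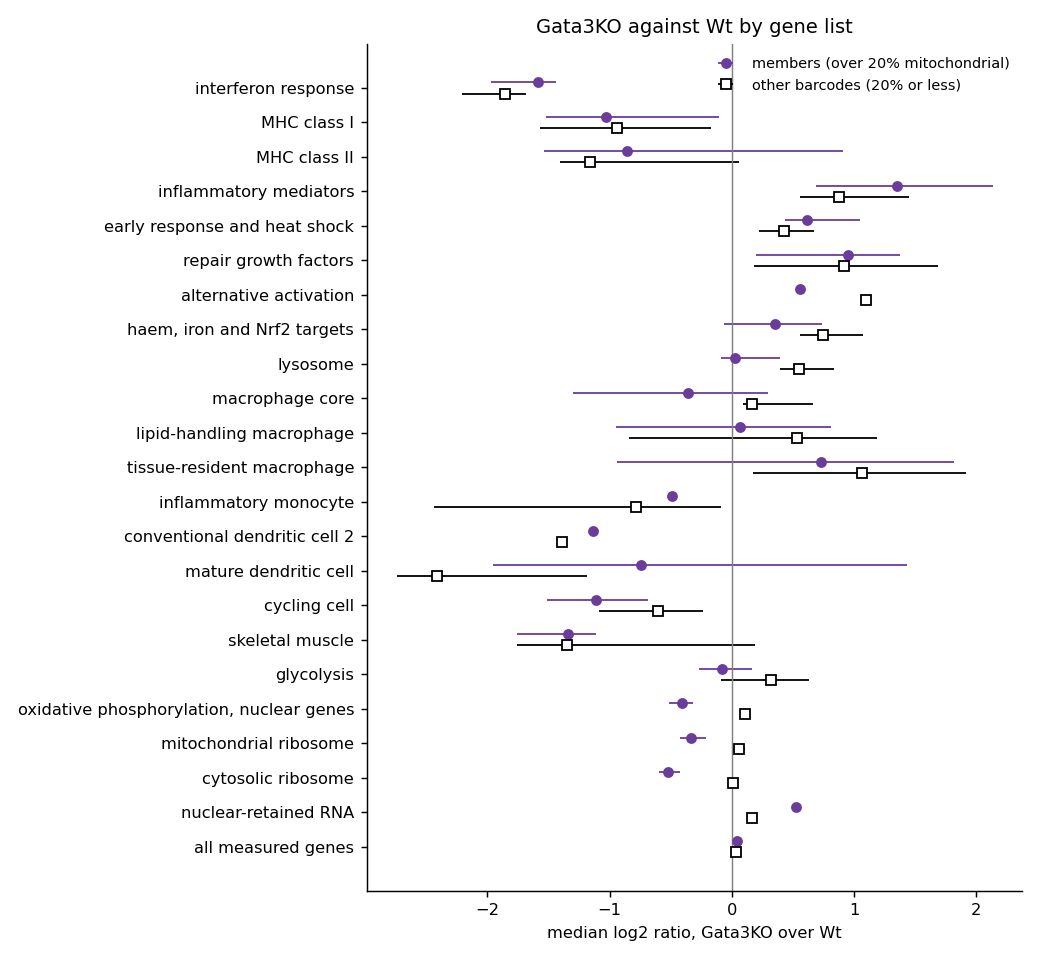
Median log2 ratio of Gata3KO over Wt (x axis) for 22 gene lists and all measured genes (rows), in members (filled) and in the other barcodes (open squares), with 95% order-statistic intervals of the median over genes, not drawn under 6 genes. Interferon and MHC lists lie below 0 and inflammatory mediators above 0 in both; ribosomal and oxidative phosphorylation lists lie below 0 in members and near it in the other barcodes; that difference was not tested.

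Iron handling and stress genes were described in the same way. Of 14 measured haem, iron and Nrf2 target genes 5 were over 1.5-fold higher in Gata3KO members and 0 lower, with a median of 0.35, against 0.74 in the other barcodes. The haem oxygenase gene *Hmox1* was at 59.6 CPM in Wt members and 132 in Gata3KO members, and the cystine transporter gene *Slc7a11* at 13 and 34.3. The ferritin gene *Fth1* was near level in members, 3472 and 3326 CPM, but at 7615 and 13191 in the other barcodes.

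Of 15 measured cell death genes 1 was over 1.5-fold higher and 1 lower: the stress gene *Gadd45b* was at 246 and 502 CPM, and *Gsdmd*, which encodes the pore-forming gasdermin D, at 166 and 95.4. Their median was 0.15 in members and 0.11 in the other barcodes. Of 13 measured glycolysis genes 0 were past 1.5-fold in members (median -0.079), and of 19 lysosome genes 2 were higher and 1 lower (0.024, against 0.55 in the other barcodes). Of 64 measured mitochondrial ribosome genes, which are encoded in the nucleus, 10 were over 1.5-fold lower and 0 higher (-0.34, against 0.062). Of all 6851 genes measured in members, 8.63% were over 1.5-fold higher in Gata3KO and 10.5% over 1.5-fold lower. The small counts of this paragraph are not read as a result beside those shares.

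Within single clusters the interferon list was lower in Gata3KO in 6 of 7 clusters. The median of the interferon list in clusters 0, 1, 3, 4, 5 and 6 was -1.57, -1.09, -1.10, -1.89, -1.69 and -1.26. In cluster 2, which these genes define, it was 0.14. The inflammatory median was 0.021, 0.39, 0.18 and 0.21 in clusters 0 to 3 and 0.54, 1.17 and 1.78 in clusters 4 to 6, and with equal cluster shares it was 0.46 in place of 1.35, with *Cxcl2* at 0.43 in place of 2.14. Cluster 3, which these genes define, held 23 Wt barcodes. The class II median was -0.53, -0.079, -0.51, -0.14, -1.13, -0.037 and -0.63 in clusters 0 to 6, against -0.86 over all members. The early response median was -0.13, 0.063, 0.17, 0.18, 0.16, 0.24 and 0.62, against 0.61 over all members. Tissue-resident genes were higher in Gata3KO in all 7 clusters by their medians, from 0.57 to 2.30, and all-gene medians lay between -0.11 and 0.10. Between barcodes of 1000 to 2000 UMIs the interferon median was -1.36 and the inflammatory median 1.36.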

How the data were processed

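Each library came as 1 table of raw UMI counts per gene and barcode, deposited by the authors. The build mm10 and the tools R 3.6.1, Seurat 3.0.2 and Cell Ranger 3.0.1 are named in the submitters' processing notes; no source used here gives a filter on barcodes. Every listed gene had a UMI in at least 5 barcodes; 13905 genes were listed in Wt and 13755 in Gata3KO, and 13276 non-mitochondrial genes were in both, of which 13148 matched GENCODE M21 (GRCm38). Per barcode, the lowest number of genes was 399 in Wt and 501 in Gata3KO. The libraries shared 2 barcode sequences, 0 among members. The members and gene lists were chosen with earlier results of these data known.

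UMIs were summed per library and expressed per 1000000 non-mitochondrial UMIs, with exact Poisson, Clopper-Pearson and conditional binomial intervals (95%). Lists use genes at 20 or more CPM in at least 1 of the groups compared, with 1 CPM added. With 1 library per group nothing was tested, and over 1.5-fold is a description. Members with at least 200 non-mitochondrial UMIs (all of them) were scaled to 10000, log-transformed and clustered without integration (2000 variable genes, 30 components, 15 neighbours, Leiden resolution 0.6). The 1000 to 2000 UMI window, name limit of 0.15 and transcript lengths were set after seeing the data. Named genes are *Gata3*, *Cx3cr1*, the 12 largest ratios each way (100 UMIs in all and 50 CPM in either library, or more), the 8 each way between members and other barcodes (largest ratio in the library where it is smaller), list extremes, identity markers at 20 or more CPM and cluster leaders; predicted genes were passed over, as were immunoglobulin, haemoglobin and Y-linked genes, *Tsix* and *Xist*. One list gene is not reported here. The ratio step was tested on simulated data. Tools were Python 3.11.15, numpy 2.4.6, pandas 2.3.3, scipy 1.17.1, scikit-learn 1.9.0, scanpy 1.11.5, leidenalg 0.10.2 and igraph 0.11.9.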

Additional observations from a re-analysis of the deposited data

How the results depend on the processing

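No paired analysis was possible because each genotype has 1 library and no replicate numbers. Of 541 list values of Gata3KO against Wt in members under 17 alternatives, 511 stayed within the main interval (1.5-fold under 6 genes), 29 moved and 1 reversed. Reversed means that a median past 1.5-fold changed sign. Of the list values of members against other barcodes, 9 of 558 in Wt and 8 of 542 in Gata3KO did so. The median of the interferon list was -1.40 with every barcode weighted alike, -1.38 with 10 CPM added, -1.26 with cluster shares held equal and -1.36 between barcodes of 1000 to 2000 non-mitochondrial UMIs. The inflammatory median was 0.46 with those shares alike. Over the alternatives run, the median of class II genes lay between -0.97 and -0.34.

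The ribosomal protein median of members against other barcodes was, in Wt, -0.67 and -0.62 at limits of 25% and 30%, -0.31 weighted alike, -0.34 thinned to 500 UMIs, -1.16 with mitochondrial UMIs in the totals, -0.64 with totals free of ribosomal protein, nuclear-retained and ribosomal RNA-overlapping genes, -0.86 against barcodes at 10% or less, -0.91 with median-of-ratios scaling, -0.86 without clusters 4 and 6, and 0.14 at 1000 to 2000 UMIs. In Gata3KO it was -1.03 at 30%, -0.82 weighted alike or thinned, -1.64 with mitochondrial totals, -1.42 against barcodes at 10% or less, -1.51 with median-of-ratios scaling and -0.37 at 1000 to 2000 UMIs. The nuclear-retained median was 0.11, 0.13 and -0.27 in Wt weighted alike, thinned and at 1000 to 2000 UMIs, and 0.14 in Gata3KO at that depth. At that depth the medians past 1.5-fold also reversed for fibroblast (0.74), cycling (1.06) and oxidative phosphorylation (0.28) lists in Wt. In Gata3KO they did for macrophage core (0.090), lipid-handling (0.13), plasmacytoid (-0.19), neutrophil (-0.50), cycling (0.10), lysosome (0.066) and early response (-0.19) lists. The plasmacytoid value rests on 1 measured gene at both depths. The neutrophil list had 1 measured gene over all depths and 2 at like depth, of which 1 was higher and 1 lower. Counting medians of any size, 17 of 33 lists changed sign at that depth in Wt and 15 of 32 in Gata3KO. They included macrophage core (-0.41 to 0.64), lipid-handling (-0.54 to 0.84), lysosome (-0.28 to 0.60), iron (-0.45 to 0.37), mitochondrial ribosome (-0.42 to 0.15) and early response (0.43 to -0.43) lists in Wt. In Gata3KO they included mature dendritic (0.39 over 3 genes to -1.18 over 7), interferon (0.18 to -0.48), inflammatory (0.34 to -0.27) and tissue-resident (-0.20 to 0.62) lists.

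Other reversals, whose cause was not tested, were *Gata3* (-0.15 at a limit of 15%, -1.02 weighted alike), *Ctsk* (-0.38 at 1000 to 2000 UMIs), the mature dendritic cell list in Gata3KO against Wt (0.49 for genes at 100 or more CPM), the neutrophil list in Wt (-0.29 with no filter), *Thbs4* thinned (0.20 in Wt, 0.37 in Gata3KO), and the cycling list (0.46 weighted alike, 0.59 thinned and 0.84 at 100 or more CPM in Wt, 0.015 weighted alike in Gata3KO). The share of barcodes over the limit was 52.3%, 26.1% and 17.0% in Wt and 70.2%, 39.1% and 23.4% in Gata3KO at limits of 15%, 25% and 30%, and 35.0% in Wt with the same minimum of genes in both libraries. Conventional dendritic cell 2-like clusters held 9.29% of Wt and 5.14% of Gata3KO members at 15%, 2.31% of Gata3KO members at 25%, and 0% and 0% at 30%, where no such cluster was found.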
